A study of Rattus norvegicus with 743 samples.

Results

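The genes described here are 30 targets and regulators of the transcription factor NRF2, followed in rat liver across a collection of drug treatments. They were chosen by name: a gene belongs if its symbol is in the list, and where a symbol stands on several rows the row with most counts was taken. Of the 30, 29 were found among the 32893 rows of the deposited count table. Pgd had no row under its symbol there and was read from a second deposited table over RefSeq genes with 34335 rows.

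The series holds liver RNA-seq from 680 rats in 75 studies, with 377 libraries of treated and 366 of vehicle rats. The 99 treated groups cover 95 treatments in 18 vehicles, and each was set against the vehicle group of its own study, batch number and vehicle. Of these, 97 were compared, in groups of 2 to 6 rats, and the remaining 2 hold second libraries of rats already compared. Rats were Han Wistar (414 libraries) or Sprague Dawley (329), 726 libraries came from males and 17 from females, and 89 of the 97 comparisons lasted 4 days.

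A comparison here is 1 treatment against vehicle, and a gene is called higher or lower when edgeR's quasi-likelihood test gives a Benjamini-Hochberg adjusted p under 0.05 over all genes of that comparison. The p-values measure the spread between the rats of a study. Results turn on 12 comparisons: bardoxolone, the 8 with most members called higher and the 3 with most members called lower. Bardoxolone, a triterpenoid known to activate NRF2, was given to 3 Han Wistar rats at 10 mg/kg for 4 days in sesame oil and compared with 3 vehicle rats. Each of those groups held 2 males and 1 female, and sex was a term of the fit. Flutamide (methylcellulose in water), ticlopidine (water), carbamazepine and nefazodone (both propylene glycol) were given at 600 mg/kg for 4 days to 4 male Han Wistar rats each, against 4 vehicle rats. Hydroxyzine (600 mg/kg, methylcellulose, 3 rats against 4) and ritonavir (400 mg/kg, propylene glycol with ethanol in water, 6 rats against 4) ran for 4 days in male Han Wistar rats. NB-360 was given at 750 mg/kg for 5 days to 4 male Han Wistar rats in a vehicle of HPMC, polysorbate 80 and PEG 400. Almorexant was given at 750 mg/kg for 7 days to 4 female Sprague Dawley rats in PEG 400. The 3 with most members lower are non-steroidal anti-inflammatory drugs (NSAIDs), given to male Sprague Dawley rats in methylcellulose for 4 days, each against 4 vehicle rats: naproxen at 400 mg/kg in 2 rats, sudoxicam at 100 mg/kg in 3 and diclofenac at 50 mg/kg in 3.

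NRF2, the product of Nfe2l2, is held in the cytoplasm and sent for degradation by KEAP1. Oxidants and electrophiles that modify KEAP1, or the autophagy adaptor SQSTM1 that captures it, release NRF2, which then binds antioxidant response elements together with small MAF proteins such as MAFG. Its targets make and recycle glutathione, reduce thioredoxin, quinones and aldehydes, break down heme and supply NADPH, and in liver several of them also answer to the receptors CAR, PXR and AhR.

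Members whose promoter carries the core letters of the antioxidant response element are shown first, since the element links NRF2 to its genes. The RefSeq promoter table for rat build GRCr8 gives 250 bases before and 50 after each gene's start, and 28 members had an entry. TGACNNNGC, searched on both strands, stood in 8 of these 28 members (28.6%) and in 4038 of all 33469 windows (12.1%). These letters overlap the AP-1 site TGACTCA, and the Htatip2, Prdx1 and Ephx1 matches hold both. A match is a description of the letters and not of binding, and members without it lack them only in this window. Below, each stretch is written 5′ to 3′ on the gene's strand with the match in capitals, and in 6 of the 8 the capitals read TGACNNNGC on the opposite strand.
Htatip2, chr1:108610053-108610093, plus strand: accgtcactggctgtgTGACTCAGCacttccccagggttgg
Gclm, chr2:213031947-213031987, plus strand: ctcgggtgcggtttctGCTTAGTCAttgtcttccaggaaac
Nfe2l2, chr3:81028953-81028977, minus strand: tgctccgactagccatTGACGCCGC
Prdx1, chr5:135383755-135383795, plus strand: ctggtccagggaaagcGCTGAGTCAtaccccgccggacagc
Gpx2, chr6:101230034-101230062, minus strand: gtgggtacctggtttcGCTAAGTCAttct
Txnrd1, chr7:22755958-22755998, minus strand: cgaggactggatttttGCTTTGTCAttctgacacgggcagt
Ephx1, chr13:95263150-95263190, minus strand: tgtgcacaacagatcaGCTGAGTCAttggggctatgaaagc
Ugdh, chr14:43202295-43202335, plus strand: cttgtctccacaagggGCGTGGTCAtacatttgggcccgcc
The Gpx2 match lies 13 bases before the start of the gene and the Ephx1 match 57 bases before it, while the Nfe2l2 match lies after the start.

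Library totals ranged from 11.2 M to 45.5 M reads outside the PCN study, whose shallowest library held 0.313 M, with a median of 18.2 M. RNA integrity (RIN) ranged from 2.2 to 9.5 with a median of 8.4, and treated livers had the higher mean RIN in 71 of the 97 comparisons. Counts of pairs of libraries were also set against what sampling alone would give, as a noise index that is near 1 for 2 samplings of the same material. Repeat libraries of 1 rat in batches 2 and 3 had indices of 1.87 to 13.8 (median 3.31, 52 pairs), and the lowest index between different rats of a group outside PCN was 12.6. By this index, 6 pairs of vehicle groups from different studies lie within the range of repeat libraries. The flutamide and ticlopidine vehicle groups are 1 such pair (2.26 to 4.13), although their labels name different vehicles. Sudoxicam with caffeine is another (3.91 to 13.2). The comparisons in each of these pairs may rest on the same control rats, so they are not taken as independent. The carbamazepine and nefazodone vehicle groups match rat by rat at 14.0 to 22.1, above the range of repeat libraries and below the other pairs of rats of those groups (29.8 or more), so whether they share rats is not known. In the Han Wistar phenobarbital study, 1 library labelled vehicle matched a treated library (6.12), and in the troglitazone study 1 treated library matched a vehicle library (3.71).

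In vehicle livers the deposited FPKM values, which are scaled by gene length, spanned the whole range from liver housekeeping levels to near absence. Prdx1, a peroxiredoxin that removes peroxides, was highest with a median of 480 FPKM over 83 vehicle groups (group means 304 to 696). Ephx1, the microsomal epoxide hydrolase, followed with 252 FPKM, and Sqstm1 with 181 FPKM. Ephx1 was also the member with the widest gap between strains, 152 FPKM in the median Han Wistar group and 341 FPKM in the median Sprague Dawley group. Strain, study and vehicle cannot be told apart in that gap. Its highest group (641 FPKM) is the phenobarbital vehicle group that holds the library alike to a treated one. At the low end stood Gpx2 at 0.420 FPKM and Slc7a11 at 0.0055 FPKM, the latter listed at 0 in 141 of 322 vehicle rats. Nqo1, the quinone reductase often used as the NRF2 marker, had a median of 16.3 FPKM and group means from 5.15 to 43.6 FPKM.

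**Figure D1:**
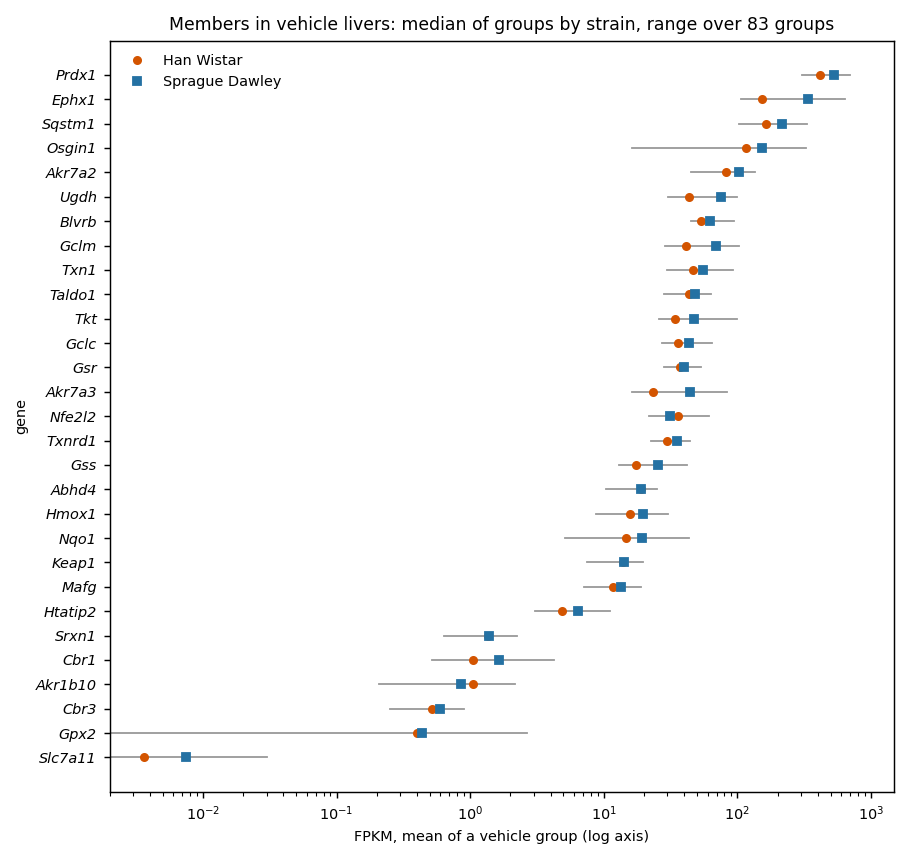
Deposited FPKM of each member in vehicle livers on a log axis: circles and squares are the median of 42 Han Wistar and 41 Sprague Dawley vehicle groups, and lines run from the lowest to the highest group mean (to the axis edge where the lowest is 0). Ephx1 lies at 152 against 341 FPKM in the strains, and Slc7a11 stands far below all other members.

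Over the 97 comparisons the members were called higher far more often than genes at large. Of 2664 member tests, 570 (21.4%) were called higher and 71 (2.67%) lower, against 4.97% and 4.55% of all gene tests. The higher calls include 9 of 10 tests of Slc7a11 and 26 of 60 of Gpx2. Both genes are so low in vehicle livers that they pass the filter on low counts mainly where treated rats express them. The members were also chosen with earlier results of these data known. The higher calls were concentrated: in 18 comparisons at least 1 of every 2 tested members was higher, and those 18 hold 64.0% of all higher calls. Of these 18, 16 were among the 53 Han Wistar comparisons and 2 among the 44 Sprague Dawley ones, but the strains received different treatments, so strain and treatment cannot be told apart. No member was called in 36 comparisons, in 16 of which no gene at all was called.

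**Figure D2:**
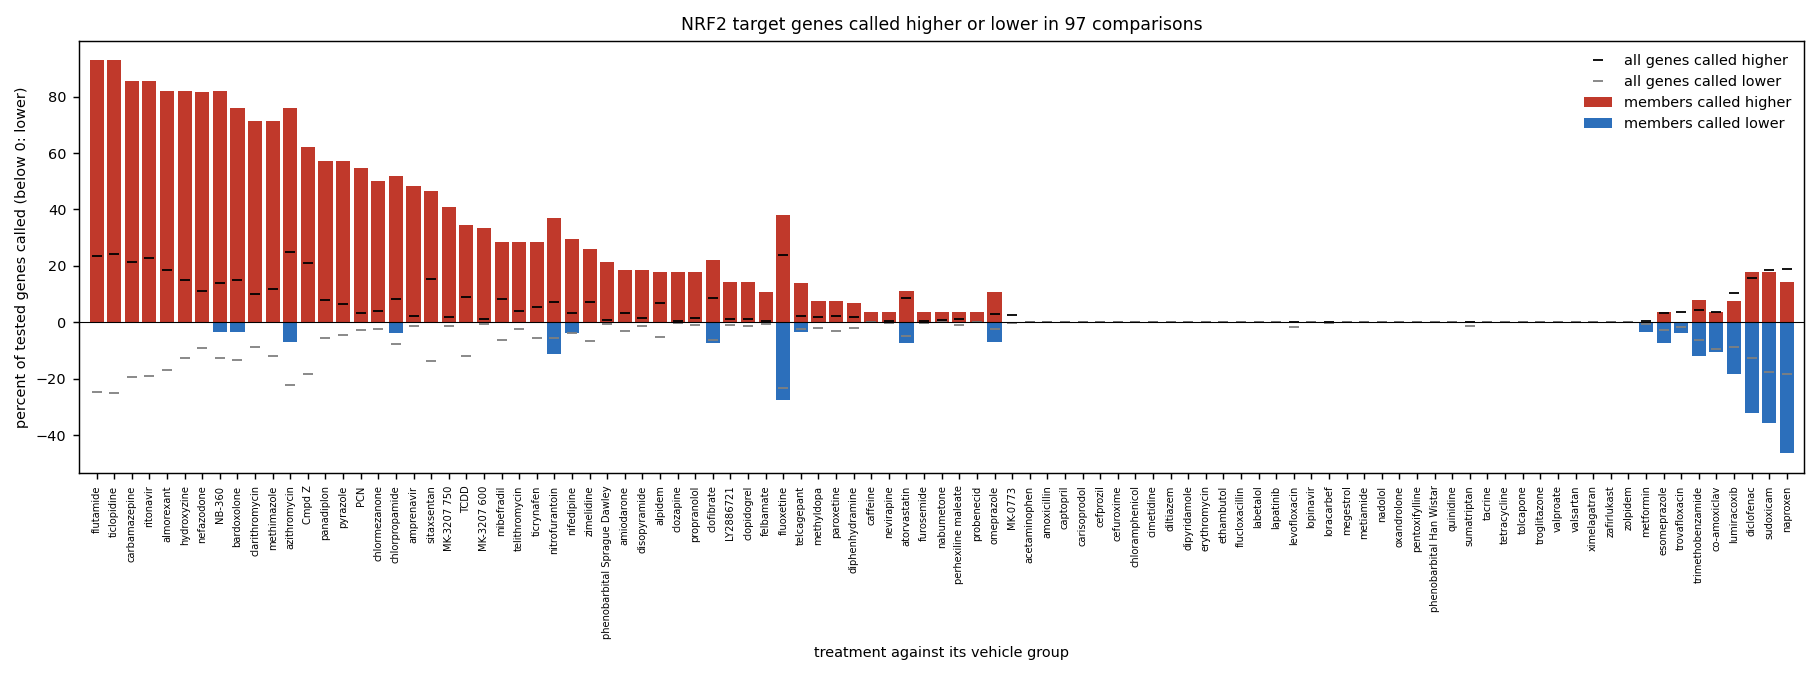
Percent of tested members called higher (red, up) or lower (blue, down) in each of 97 comparisons, with dashes for the percent of all genes called. Bars reach 26 of 28 members for flutamide and ticlopidine at the left, 36 comparisons in the middle hold no call, and naproxen at the right has 13 of 28 members lower.

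Bardoxolone raised 22 of 29 members and lowered 1, against 15% of all genes (1923 of 12834) higher and 13.3% lower, with a median log2 fold change of 1.27 for the members and −0.0096 for all genes. With the 2 males of each group alone, 21 of 28 members were higher against 11.2% of genes. Mean RIN was 8.8 in the treated and 7.5 in the vehicle livers, with no overlap, so RIN and treatment are hard to tell apart here. A fit with RIN as a covariate called 2 members higher. With RIN, the log2 fold changes were 3.56 for Gclc and 5.32 for Akr7a3, which kept their calls. Gclm at 2.75, Txnrd1 at 2.92 and Srxn1 at 3.59 were no longer called. The log2 fold changes of Akr1b10 and Slc7a11 were lower, 5.74 against 7.42 and 4.62 against 6.13. That of Nqo1 turned from 3.11 to −1.46, and none of Akr1b10, Slc7a11 and Nqo1 was called with RIN. The part of RIN in these changes was not tested further.

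The 8 other treatments reached as many or more members. Flutamide raised 26 of 28 members (23.4% of all genes, members' median 2.45), and ticlopidine 26 of 28 (24.1%, median 2.30). Carbamazepine raised 24 of 28 (21.3%, median 2.15) and ritonavir 24 of 28 (22.7%, median 1.82). Almorexant raised 23 of 28 (18.5%, median 1.49) and hydroxyzine 23 of 28 (15.1%, median 1.06). NB-360 raised 23 of 28 and lowered 1 (13.8% and 12.7% of genes, median 1.57), and nefazodone raised 22 of 27 (11.1%, median 1.78). Over all genes, the median log2 fold change of these 8 comparisons lay between −0.019 and 0.0054. Mean RIN was higher in the treated than in the vehicle group in 7 of the 8, by most in flutamide (8.93 against 8.28), and lower in ritonavir (8.33 against 8.35). With RIN as a covariate the counts were 12 for flutamide, 10 for NB-360, 2 for nefazodone and 0 for hydroxyzine, while ticlopidine had 24 and ritonavir 24. Among values given below, calls lost with RIN include Gclc, Gclm, Slc7a11 and Hmox1 under flutamide and Srxn1 and Akr1b10 under NB-360. They also include Ephx1 and Gpx2 under hydroxyzine and Ugdh and Akr7a3 under nefazodone.

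**Figure D3:**
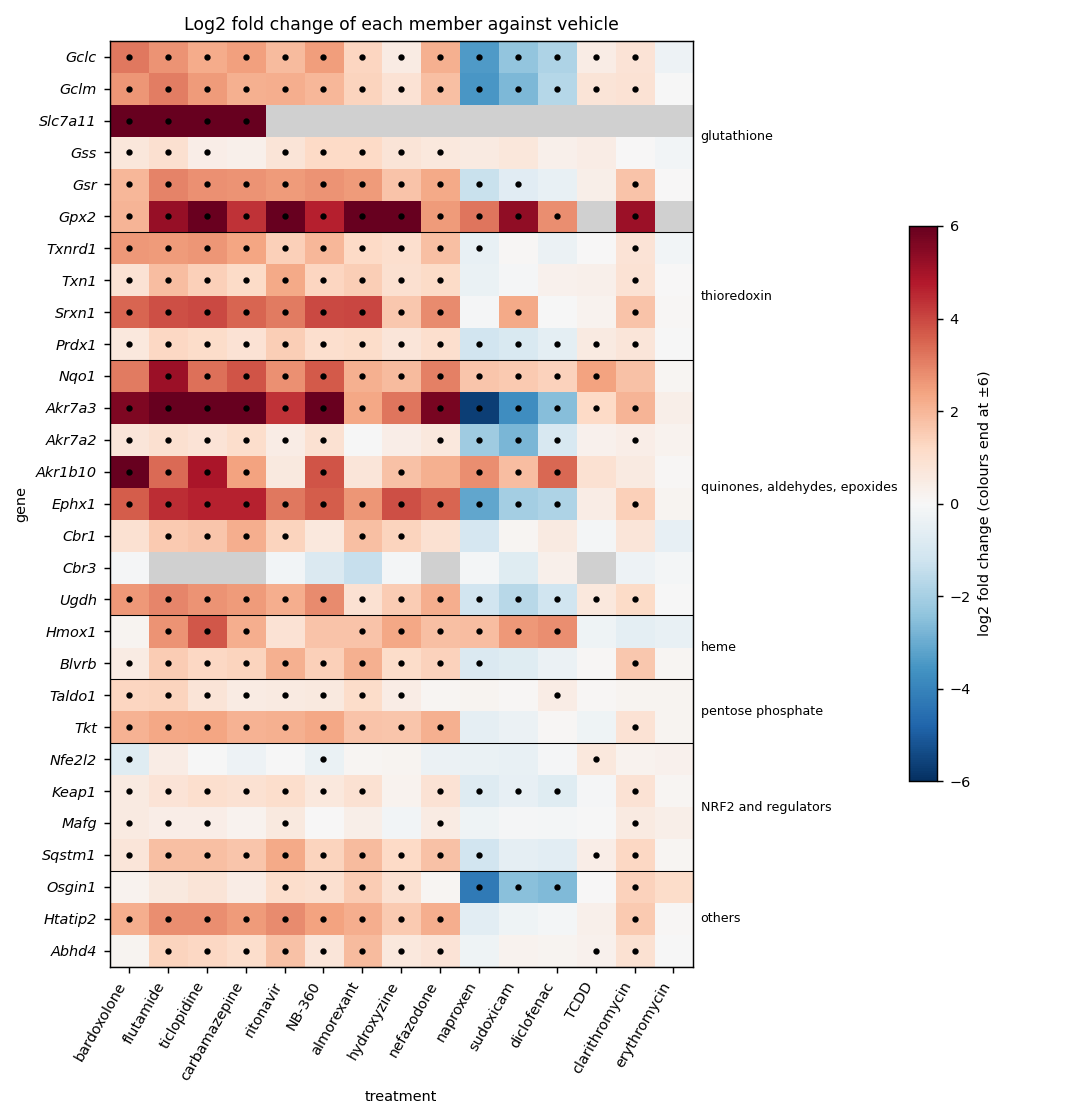
Log2 fold change of each of 29 members (rows, grouped by role) against vehicle in the 12 described comparisons and in TCDD, clarithromycin and erythromycin (columns). Dots mark adjusted p under 0.05, grey was not tested. Most members are red in the 9 columns at the left, while Gclc, Gclm, Akr7a3, Ephx1, Ugdh and Osgin1 are blue under the 3 NSAIDs.

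The genes of glutathione synthesis and use were mostly higher in the 9 comparisons chosen for many higher members, and less often elsewhere: Gclc was higher in 20 and lower in 8 of 97, and Gclm higher in 18 and lower in 8. Gclc and Gclm encode the catalytic and modifier subunits of glutamate-cysteine ligase, the rate-limiting enzyme of glutathione synthesis, and both were higher in all 9 comparisons, bardoxolone included. In CPM, read counts scaled to a common library size, Gclc read 1066, 979 and 779.5 CPM in the bardoxolone rats and 91.9, 119 and 107 CPM in their vehicle rats. Every treated rat lay far above every vehicle rat, a difference of 3.15 ± 0.11 on the log2 scale (± SE of the fit here and below; adjusted p = 5.33e-06), the highest for Gclc in any of the 97 comparisons. Under flutamide it read 893, 953, 549 and 569 CPM against 118, 116, 117 and 113 CPM (log2 2.68 ± 0.19). The lowest of the 9 was hydroxyzine with 0.49. Gclm read 427, 433 and 271 CPM under bardoxolone against 38.4, 78.3 and 69.0 CPM, again without overlap, a log2 fold change of 2.64 ± 0.11.

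Slc7a11, the cystine importer that feeds this synthesis, was almost silent in vehicle livers. It passed the filter on low counts in 10 comparisons and was higher in 9 of them. Since the filter lets it through where treated rats express it, that count does not bear on its general response. The bardoxolone rats read 7.82, 10.4 and 23.7 CPM and their vehicle rats 0.175, 0.101 and 0.295 CPM (log2 6.13 ± 0.35, adjusted p = 0.000103). The 4 flutamide rats read 4.25, 9.98, 2.17 and 1.84 CPM, while their vehicle rats held a single read in all, listed at 0 in 3 of 4. In summed reads that is 347 against 1, a ratio of shares of 307.5 with an exact 95% counting interval of 54.8 to 12180. Ticlopidine gave 578 reads against 2 (299.6, interval 82.6 to 2480) and carbamazepine 553 against 2 (290.9, interval 80.1 to 2408). These intervals cover counting error only, and the fitted fold changes of such a gene depend on the prior count.

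Gsr, which reduces oxidised glutathione, was higher in all 9 comparisons (log2 1.73 to 2.99) and in 33 of 97 overall. Gss, glutathione synthetase, was higher in 8 of the 9 by smaller amounts (0.40 to 1.19 where called), with carbamazepine at 0.30 not called. Its highest value was 1.41 ± 0.07 under azithromycin. Gpx2, a glutathione peroxidase better known from the gut, was tested in 60 comparisons and called higher in 26 and lower in none. Like Slc7a11 it is so low in vehicle livers that the filter lets it through mainly where treated rats express it, so this count does not bear on its general response. Almorexant rats read 92.9, 99.4, 116.5 and 15.9 CPM of Gpx2 against 0.299, 0.237, 0.393 and 0.722 CPM. That was its largest change (log2 7.60 ± 0.71, adjusted p = 0.000311), and no treated rat overlapped the vehicle rats. Gpx2 also varied widely within groups. Ticlopidine rats read 6.43, 76.2, 3.98 and 4.31 CPM against 0.0679, 0.0833, 1.22 and 0.0812 CPM, where 1 treated rat stood far above the others. That call (log2 5.93 ± 1.69, adjusted p = 0.0239) was lost when vehicle rat 1, 2 or 4 was left out, at 5.54 to 5.63. Under bardoxolone the females read 3.51 (treated) and 1.31 (vehicle) CPM and the males 0.519 and 0.576 against 0.101 and 0 CPM. The groups overlapped across sexes and not within them (log2 2.03 ± 0.54, adjusted p = 0.0258). That call was lost without the sex term (1.68), with RIN (3.05), and without vehicle rat 2, treated rat 1 or treated rat 2 (1.95 to 2.04).

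The thioredoxin genes Txnrd1, Txn1, Srxn1 and Prdx1 were each called higher in all of the same 9 comparisons. Most of these comparisons were chosen for many higher members, so this count does not show that the genes move together. Over the series Txnrd1 was higher in 17 and lower in 1 of 97 comparisons, and Prdx1 higher in 21 and lower in 4. Srxn1 was higher in 21 of 96 and Txn1 in 23 of 97, and neither was called lower. Txnrd1, thioredoxin reductase, read 570.4, 555 and 562 CPM under bardoxolone against 87.9, 99.8 and 86.1 CPM. The treated rats were nearly identical to one another and far from the vehicle rats (log2 2.62 ± 0.11, adjusted p = 8.45e-06). Srxn1, sulfiredoxin, which repairs over-oxidised peroxiredoxins, had the largest fold of the 4. It read 5.11, 4.70 and 9.87 CPM under bardoxolone against 0.742, 0.454 and 0.492 CPM (log2 3.51 ± 0.20). NB-360 rats read 5.90, 14.4, 13.1 and 8.62 CPM against 0.314, 0.694, 0.556 and 1.11 CPM (3.97 ± 0.40). Almorexant rats ranged from 2.85 to 23.2 CPM against 0.612 to 0.935 CPM (4.00 ± 0.61). In these 3 comparisons no Srxn1 value of a treated rat fell within the vehicle range. Txn1, thioredoxin itself, rose most under ritonavir, where 6 rats ran from 47.8 to 61.2 CPM (median 55.7) and 4 vehicle rats read 6.18, 9.41, 11.4 and 18.5 CPM (log2 2.27 ± 0.25). Prdx1, the most abundant member, rose least, from 0.65 under bardoxolone to 1.50 under ritonavir.

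The enzymes that reduce quinones and aldehydes or open epoxides gave some of the largest changes. Akr7a3, the aflatoxin aldehyde reductase, was higher in all 9 comparisons, from 2.30 under almorexant to 6.56 ± 0.27 under ticlopidine. Ticlopidine rats read 2593, 3931, 1787 and 2656 CPM against 24.7, 28.6, 33.7 and 29.6 CPM. Carbamazepine rats read 1935, 3307, 1691 and 2333 CPM against 20.3, 35.5, 19.1 and 27.2 CPM (log2 6.50 ± 0.32). No treated rat came near a vehicle rat in either. Ephx1 was higher in 39 of 97 comparisons, as often as Tkt and more often than the other members. Ticlopidine rats read 6344, 6667, 6483 and 7366 CPM of Ephx1 against 272, 253, 329.7 and 224 CPM, a tight shift of 4.64 ± 0.15 (adjusted p = 2.30e-08). Hydroxyzine rats read 2777, 3975 and 4095 CPM against 244, 257, 285 and 216 CPM (3.85 ± 0.19). Ugdh, which makes the UDP-glucuronic acid used in conjugation, was higher in all 9 (0.91 to 2.93), and under nefazodone read 502, 433, 664 and 511 CPM against 79.2, 138, 123 and 120.4 CPM (2.20 ± 0.19), again without overlap.

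Nqo1 was higher in 33 comparisons and in all 8 comparisons beside bardoxolone (1.89 to 5.13). Flutamide rats read 1332, 896, 607 and 783 CPM against 26.7, 25.9, 22.6 and 28.1 CPM, its largest change (log2 5.13 ± 0.25, adjusted p = 2.00e-06). Under bardoxolone Nqo1 read 61.0, 211 and 120.4 CPM against 24.2, 4.59 and 19.0 CPM. The groups did not overlap, but rats within each differed widely, and the difference of 3.11 ± 0.89 was not called (adjusted p = 0.0821). DESeq2, run as an alternative, did call it (3.13). Akr1b10, an aldo-keto reductase of aldehydes and retinal, showed the reverse, with its largest change under bardoxolone. The 2 treated males read 45.0 and 52.7 CPM, the treated female 571 CPM, and the vehicle rats 0.960, 0.656 and 1.03 CPM (log2 7.42 ± 0.84, adjusted p = 0.00863). It was also higher under 5 of the 8 others and all 3 NSAIDs. NB-360 rats read 6.19, 5.52, 15.3 and 24.3 CPM against 1.88, 0.926, 0.303 and 0.666 CPM (3.75 ± 0.68).

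The remaining reductases moved less. Akr7a2, close kin of Akr7a3, was higher in 7 of the 9 comparisons, at most by 1.05 under carbamazepine. Cbr1, a carbonyl reductase, was higher in 6 of the 9, by 1.33 to 2.20. Cbr3, its close relative, passed the filter in 82 comparisons and edgeR called it in none (5 at an unadjusted p under 0.05), and DESeq2 in 0. Near-identical stretches of Cbr1 and Cbr3, and of the Akr genes, may share reads, so their separate values are uncertain.

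**Figure D4:**
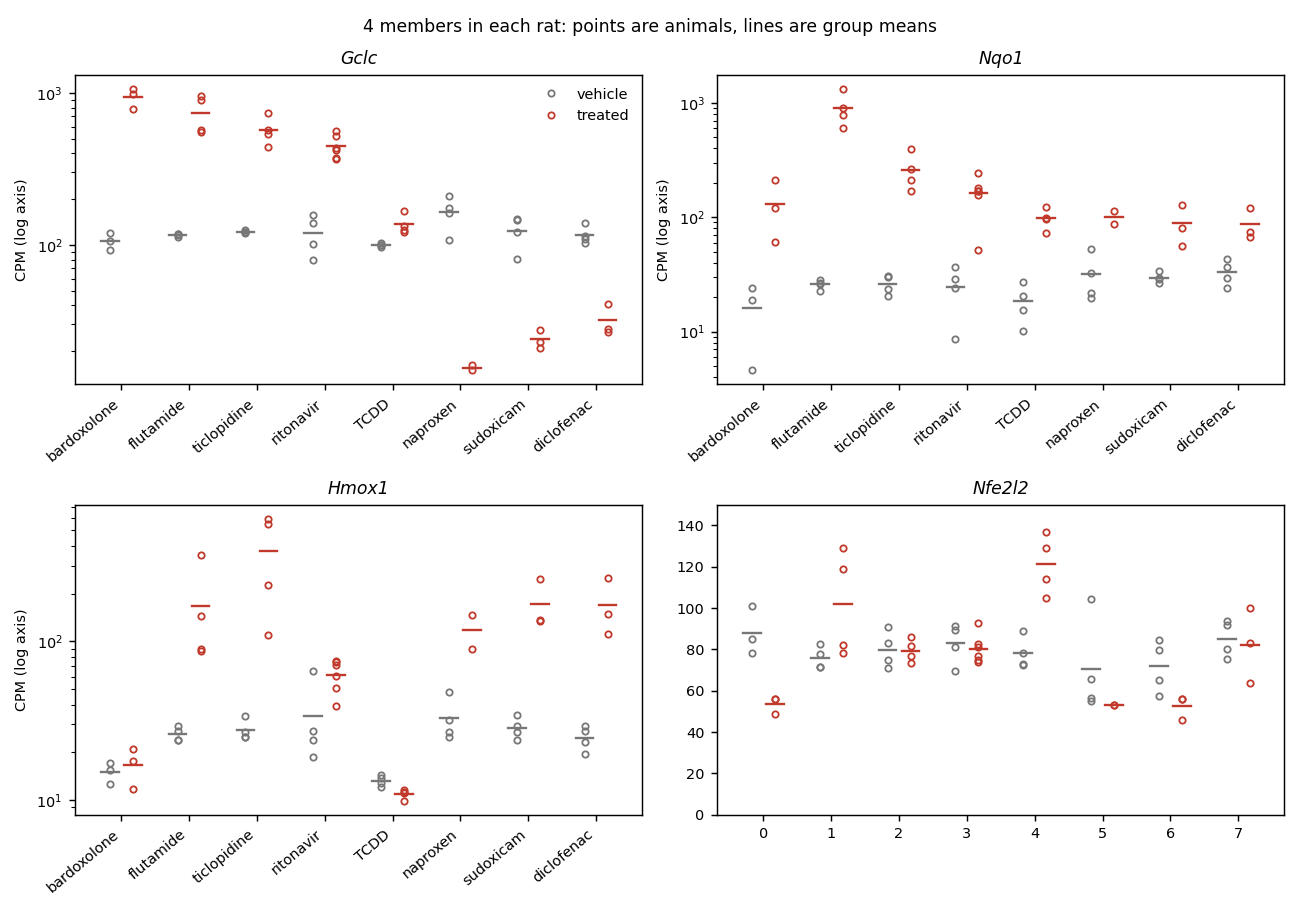
CPM of Gclc, Nqo1, Hmox1 (log axes) and Nfe2l2 (linear axis) in each vehicle (grey) and treated (red) rat of 8 comparisons, with lines at group means. Gclc of naproxen rats lies at 16.2 and 14.9 CPM, below all vehicle rats, while Nqo1 and Hmox1 of the same rats lie above them, and Nfe2l2 is below its vehicle rats under bardoxolone and above them under TCDD.

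The 2 members grouped under heme parted. Blvrb, biliverdin reductase B, was higher in all 9 comparisons, from 0.50 under bardoxolone to 2.13 under almorexant. Hmox1, heme oxygenase, was higher in 6 of the 9 and not under bardoxolone. The bardoxolone rats read 17.6, 11.7 and 21.0 CPM and their vehicle rats 17.0, 15.4 and 12.6 CPM, so the groups overlapped (log2 0.15 ± 0.17, adjusted p = 0.543). Ticlopidine rats read 227, 552, 110.2 and 591 CPM of Hmox1 against 33.8, 25.0, 24.9 and 26.8 CPM (3.74 ± 0.57, adjusted p = 0.00165). Flutamide rats read 350.1, 145, 90.1 and 86.5 CPM against 29.5, 23.8, 24.0 and 27.4 CPM (2.68 ± 0.48). Treated and vehicle rats did not overlap in either, and the treated rats were widely spread. The largest Hmox1 change in the series was under telcagepant, Sprague Dawley rats at 400 mg/kg, at 59.8, 957, 1828 and 88.6 CPM against 25.1, 24.5, 33.8 and 29.3 CPM. All treated rats lay above the vehicle rats, with a wide spread of their own, a log2 fold change of 4.70 ± 1.06 (adjusted p = 0.0426).

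Macrophages, the Kupffer cells of liver, are a known site of Hmox1, and in bulk tissue fewer cells of a type and less RNA per cell cannot be told apart. Of 11 macrophage markers, 10 were lower under flutamide, 11 under ticlopidine, 11 under carbamazepine, 11 under NB-360 and 10 under almorexant, with none higher. Their summed level ran from 257 to 378 CPM in ticlopidine rats and from 593 to 687 CPM in vehicle rats. Hmox1 was called higher in 4 of these 5 comparisons, and none of the 11 markers was at 0 in all rats. Under the 3 NSAIDs both Hmox1 and most of the macrophage markers were higher. Which cells made the Hmox1 RNA was not tested. Bardoxolone lowered 7 of the 11 (summed level 424 to 470 CPM, vehicle 508 to 632 CPM), and ritonavir none. Hepatocyte markers were mostly lower too, 6 of 7 under ticlopidine and 5 of 7 under flutamide. Their part in the members' changes was not tested.

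Of the pentose phosphate genes, which supply NADPH, Tkt, transketolase, stood out by its evenness. It was higher in all 9 comparisons within a narrow band of 1.65 to 2.36 and in 39 of 97 overall. Carbamazepine rats read 251, 267, 271 and 253 CPM against 54.9, 70.8, 62.3 and 54.0 CPM, with little spread and no overlap (2.11 ± 0.10, adjusted p = 1.92e-07). Taldo1, transaldolase, was higher in 8 of the 9 but by at most 1.35 (flutamide). Pgd, the 6-phosphogluconate dehydrogenase that yields NADPH directly, was higher in 31 of 97 comparisons and lower in none in the RefSeq table, with a median log2 fold change of 0.38. It was higher in all 9, from 1.50 under nefazodone to 2.30 ± 0.21 under flutamide (bardoxolone 1.51 ± 0.10).

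The regulators of the pathway divided by kind. Keap1 was higher in 8 of the 9 comparisons (0.53 to 1.06 where called), and Sqstm1 in all 9, up to 2.27 ± 0.10 under ritonavir. There, 6 rats ran from 1486 to 1840.4 CPM (median 1652) and 4 vehicle rats read 391, 313, 326 and 345 CPM, without overlap. Mafg, the MAF partner, was higher in 5 of the 9 and by at most 0.57. Nfe2l2, which encodes NRF2, was higher in none of the 9 and lower in 2, and both lower calls ended with RIN as a covariate. Bardoxolone rats read 56.2, 55.9 and 49.0 CPM against 78.4, 101 and 84.9 CPM, every treated rat below every vehicle rat (log2 −0.71 ± 0.10, adjusted p = 0.00174). NB-360 rats read 81.0, 80.9, 68.5 and 82.7 CPM against 91.7, 117, 113 and 96.2 CPM (−0.42 ± 0.11, adjusted p = 0.0146). With RIN the values were −0.40 for bardoxolone and −0.29 for NB-360. Flutamide rats read 82.1, 78.3, 129 and 119 CPM against 77.6, 82.8, 71.4 and 71.6 CPM, overlapping and not called (0.43 ± 0.16, adjusted p = 0.0503). That value lies at the threshold and was called with 6 alternative settings, among them DESeq2 and leaving out treated rat 1 or 2 (0.44 to 0.56). Across the series Nfe2l2 was higher in 3 comparisons (TCDD, azithromycin and Cmpd Z) and lower in 6.

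Among the members without a shared role, Htatip2, a tumour suppressor of the short-chain dehydrogenase family, was higher in all 9 comparisons (1.56 to 2.83). Abhd4, a lipase of N-acyl phospholipids, was higher in all 8 beside bardoxolone, where it stood at 0.15. Almorexant rats read 189.9, 127, 220.5 and 103 CPM of Abhd4 against 53.6, 42.0, 39.0 and 37.4 CPM, its largest change (1.90 ± 0.26). Osgin1, an oxidative stress-induced growth inhibitor, was higher in 4 of the 9 and had both its extremes elsewhere. PCN, a PXR agonist given at 500 mg/kg for 7 days to 4 Han Wistar rats, gave 169, 329, 179.9 and 483 CPM against 25.3, 49.1, 46.0 and 13.0 CPM (2.98 ± 0.53, adjusted p = 0.0232). In those shallow libraries 12 of 22 tested members were higher, against 3.3% of all genes. Osgin1 was called lower in 8 comparisons, as often as Gclc and Gclm.

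Under naproxen, sudoxicam and diclofenac, members were called lower more often than higher. Naproxen lowered 13 of 28 members and raised 4 (18.4% of all genes lower, 18.8% higher), and the members' median was −0.59. Sudoxicam lowered 10 and raised 5 of 28 (17.8% lower, 18.6% higher, median −0.40), and diclofenac lowered 9 and raised 5 of 28 (12.7% lower, 15.6% higher, median −0.13). The share of members higher is near that of all genes for sudoxicam and diclofenac and below it for naproxen, while the share lower is above that of all genes in all 3. Since the 3 were chosen for many lower members, a high share lower and members lower in all 3 follow in part from that choice. Gclc, Gclm, Akr7a3, Akr7a2, Ephx1, Prdx1, Ugdh, Keap1 and Osgin1 were lower in all 3, and Nqo1, Akr1b10, Hmox1 and Gpx2 were higher in all 3. The series holds further NSAIDs in Sprague Dawley rats. Lumiracoxib (400 mg/kg, 3 against 4) raised 2 and lowered 5 of 27 members, with 10.5% of all genes higher and 8.61% lower. Nabumetone (600 mg/kg, 4 against 4) raised 1 and lowered 0 of 28, with 0.672% of genes higher and 0.0781% lower. Lower calls were not limited to NSAIDs. Fluoxetine (400 mg/kg, Han Wistar, 3 against 4) raised 11 and lowered 8 of 29 members, with 23.7% of all genes higher and 23.4% lower. The share of members lower is near that of all genes there, so this count does not set the members apart. Gclc, Gclm, Akr7a2, Keap1 and Osgin1 were among those lower, and Nqo1, Hmox1 and Gpx2 among those higher.

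Naproxen gave the deepest falls, in 2 rats. Gclc read 16.2 and 14.9 CPM against 175, 209.5, 163 and 107 CPM (log2 −3.39 ± 0.29, adjusted p = 0.000131). Akr7a3 read 1.06 and 1.47 CPM against 112, 61.1, 56.5 and 29.4 CPM (−5.67 ± 0.70). Osgin1 read 22.0 and 17.6 CPM against 213, 212, 335 and 728 CPM (−4.23 ± 0.68). Both rats lay far below all vehicle rats for each. The same rats read 112 and 86.8 CPM of Nqo1 against 53.0, 21.9, 19.5 and 32.4 CPM, both above all vehicle rats (1.65 ± 0.39, adjusted p = 0.0157). With RIN as a covariate this Nqo1 call was lost, at 1.22. The Nqo1 and Osgin1 calls were lost when either of the 2 treated rats was left out, which leaves an arm of 1 whose spread is assumed to be that of the vehicle rats, at 1.46 and 1.84 for Nqo1 and −4.39 and −4.06 for Osgin1.

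Sudoxicam rats read 13.4, 17.9 and 14.4 CPM of Gclm against 93.8, 67.9, 51.2 and 178 CPM (−2.68 ± 0.44). Srxn1 was higher there alone of the 3, at 1.50, 4.09 and 2.82 CPM against 0.611, 0.421, 0.652 and 0.604 CPM (2.27 ± 0.39). Hmox1 read 137, 134 and 248 CPM against 34.2, 29.5, 23.8 and 26.9 CPM (2.60 ± 0.25). In these genes treated and vehicle rats did not overlap. Diclofenac rats read 111, 251 and 149 CPM of Hmox1 against 23.1, 19.6, 29.1 and 27.3 CPM (2.78 ± 0.28), and 11.4, 1.79 and 12.0 CPM of Akr1b10 against 1.15, 0.610, 0.186 and 1.16 CPM (3.42 ± 0.73). Osgin1 read 41.0, 29.6 and 73.6 CPM against 397, 270.3, 232 and 323 CPM (−2.67 ± 0.35). Each of these sets lay apart from its vehicle rats.

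Markers of inflammatory cells moved with these groups. Of the 11 macrophage markers, 9 were higher under each of the 3 NSAIDs, with Marco at 2.82 to 3.67 and Clec4f, the marker of resident Kupffer cells, at −1.12 to −1.95. The summed macrophage level was 1651 to 1804 CPM in naproxen rats and 563 to 902 CPM in vehicle rats. Summed neutrophil markers ran from 2670 to 15207 CPM in NSAID rats and from 1.35 to 7.66 CPM in vehicle rats, mostly through Lcn2 (log2 11.3 to 12.1; mean 8116 CPM in naproxen rats), which inflamed hepatocytes also make. The neutrophil granule genes Mpo, Elane, Camp and Ngp passed the count filter in none of the 3. RIN was higher in the treated groups (8.7 against 7.88 for naproxen). Their part in the members' changes was not tested.

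A pair of direct tests asked where the bardoxolone response differs from that of other inducers. TCDD, the AhR agonist, was given to Han Wistar rats of the same batch number at 0.00015 mg/kg for 4 days in corn oil with acetone, 4 against 4. It raised 9 of 26 members against 8.79% of all genes. Mean RIN was 9.2 in the TCDD livers and 7.88 in their vehicle livers, and its part was not tested. Nqo1, an AhR target too, read 96.4, 123, 72.6 and 98.6 CPM against 27.3, 20.5, 10.1 and 15.5 CPM (2.40 ± 0.30). Nfe2l2 read 137, 114, 105 and 129 CPM against 73.0, 72.7, 89.1 and 78.1 CPM (0.63 ± 0.10), so both groups stood apart and in the direction opposite to bardoxolone. In 1 fit of 4 groups, the bardoxolone change exceeded that of TCDD for 15 of 29 members (9.93% of all genes) and was below it for 1 (6.49%), Nfe2l2 at −1.35 ± 0.15. Only 26 of the members passed the filter on low counts in the TCDD comparison alone, and Slc7a11 enters this fit through the bardoxolone rats. For such members the direction is nearly set by the filter, so the count of 15 is not independent of it. Differences ran up to 6.48 ± 0.91 for Akr1b10, with 2.69 ± 0.15 for Gclc and 2.60 ± 0.12 for Txnrd1. For Nqo1 it was 0.72 (95% interval −0.81 to 2.25, adjusted p = 0.590). This contrast was not fitted with RIN. Doses and vehicles differ between bardoxolone and TCDD, and these cannot be told apart from the compounds.

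Against flutamide, in other studies and batches of Han Wistar rats, bardoxolone gave more of Akr1b10 alone (3.90 ± 0.79; 4.43% of all genes) and less of 10 members (6.94%). The 10 were Hmox1 (−2.60 ± 0.63), Abhd4 (−1.25 ± 0.14), Nfe2l2 (−1.21 ± 0.22), Sqstm1, Blvrb, Gsr, Txn1, Ephx1, Htatip2 and Prdx1. Gclc, Gclm and Txnrd1 were not among them. Doses, vehicles, batches and sexes differ between the groups, and these cannot be told apart from the compounds.

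**Figure D5:**
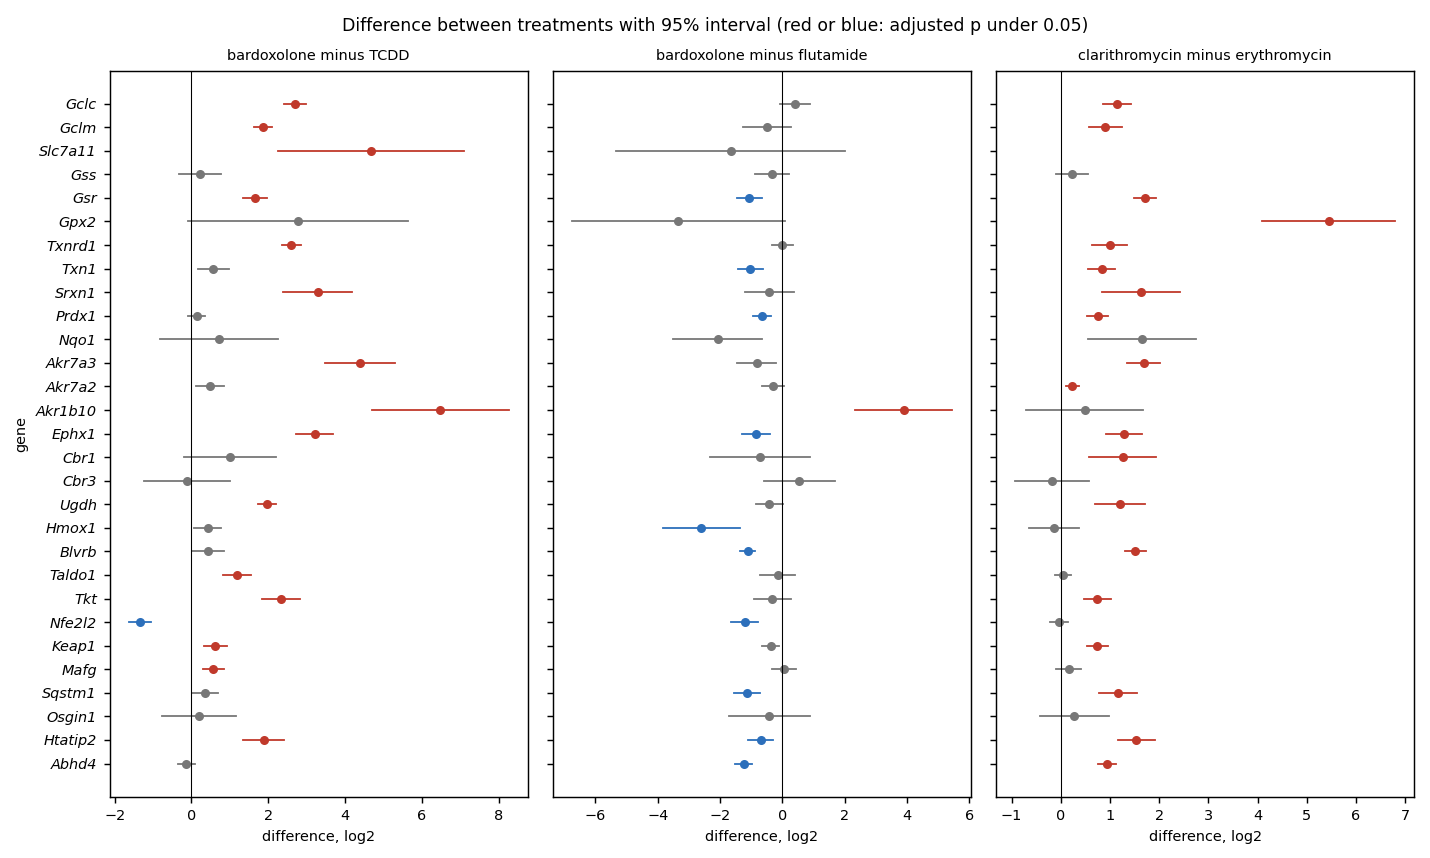
Difference in log2 fold change or log2 level (points) with 95% intervals for each member in 3 contrasts; red is higher and blue lower at adjusted p under 0.05. Akr1b10 lies at 6.48 and 3.90 in the 2 bardoxolone panels, Nfe2l2 at −1.35 and −1.21, and 19 members are higher under clarithromycin than under erythromycin.

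A matched pair was found in the macrolides. Clarithromycin is the methyl ether of erythromycin, and both were given at 600 mg/kg for 4 days to 4 Han Wistar rats in 1 study with 1 shared vehicle group. Clarithromycin raised 20 of 28 members against 10.1% of all genes, and erythromycin 0 of 27 with 0.0% of genes called by edgeR. For erythromycin, 6 members had an unadjusted p under 0.05, and DESeq2 called 1. Gsr read 219.9, 282, 206 and 194 CPM under clarithromycin, 69.5, 64.3, 68.6 and 64.4 CPM under erythromycin, and 65.0, 74.9, 62.2 and 74.2 CPM in vehicle rats. Clarithromycin rats stood apart, while erythromycin rats lay within the vehicle range. Gpx2 read 11.0, 21.6, 17.9 and 14.3 CPM under clarithromycin and 0.244, 0.287, 0.0648 and 0.768 CPM under erythromycin. Set directly against each other, 19 of 28 members were higher under clarithromycin (7.84% of all genes) and none lower (6.18%). The largest differences were Gpx2 at 5.45 ± 0.69, Gsr at 1.70 ± 0.11 and Akr7a3 at 1.68 ± 0.17. Gpx2 was too low to be tested under erythromycin and passes the filter here through the clarithromycin rats. Its direction is therefore nearly set by the filter. Of the members not called, Nfe2l2 and Hmox1 had differences near 0 and Nqo1 one of 1.64. Macrophage markers were lower under clarithromycin (9 of 11) and not under erythromycin (0 of 11), and their part was not tested.

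The other contrasts gave no member. MK-3207 at 750 against 600 mg/kg, both in Han Wistar rats for 4 days with a shared vehicle group, called 0 of 28 members and 0.0% of 12874 genes in either direction. At an unadjusted p under 0.05 there were 917 genes and 2 members, DESeq2 called 15 genes, and the smallest adjusted p of a member was 0.660. Felbamate and carisoprodol, both dicarbamates of a propanediol at 750 mg/kg for 4 days in Sprague Dawley rats, came from different studies with their own vehicle groups and methylcellulose of different strength. They differed in 0 of 28 members and 0.0% of 13028 genes. There were 1283 genes and 1 member at an unadjusted p under 0.05, and DESeq2 called 26 genes. Intervals of the differences reached from −6.16 to 0.98 for the MK-3207 pair and from −5.72 to 6.46 for the other, so these tests do not show that the treatments act alike.

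For phenobarbital, a CAR activator, the Han Wistar count depends on 1 library labelled vehicle. In the Han Wistar study (100 mg/kg for 7 days, 5 against 5), edgeR called 0 members and 0.0% of genes higher, with 15 members at an unadjusted p under 0.05 and 13 called by DESeq2. Cyp2b1, the classic phenobarbital-induced P450, read 12263 CPM in that library labelled vehicle, against 161 to 323 CPM in the other vehicle rats and 11492 to 14224 CPM in treated rats. Ephx1 read 3368, 2581, 2465, 3143 and 3681 CPM in treated rats and 608, 669.7, 3191, 611 and 513 CPM in vehicle rats, where only the third vehicle library lies in the treated range. Without it, 15 of 27 members were higher, against 8.57% of all genes. They were led by Akr7a3 (2.65 ± 0.26), Srxn1 (2.40 ± 0.29) and Ephx1 (2.35 ± 0.15), and Nfe2l2 was among them at 0.44 ± 0.12. In Sprague Dawley rats (100 mg/kg for 17 days, 2 against 3), phenobarbital raised 6 of 28 members, against 0.758% of all genes. For troglitazone, 0 members were called both with the treated library alike to a vehicle library (0.0% of genes) and without it (0.49%). With all libraries, 5 members had an unadjusted p under 0.05 and DESeq2 called 0.

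A list of 26 further NRF2 pathway genes, all found in the table, was read beside the members. It too was chosen with earlier results of these data known. Over the 97 comparisons 488 of 2519 tests (19.4%) were higher and 72 (2.86%) lower, against 4.97% and 4.55% of all gene tests. Bardoxolone raised 21 and lowered none, flutamide 22 and none, ticlopidine 21 and none, and naproxen raised 2 and lowered 10. Shares of all genes higher in these were 15%, 23.4%, 24.1% and 18.8%, and 18.4% were lower under naproxen. Gsta3, a glutathione transferase, was higher most often (46 comparisons), then Abcc3, an efflux pump of conjugates (40). Under bardoxolone Gstp1, another glutathione transferase, rose by 6.37 ± 0.59, and Pir, an iron-binding protein, by 2.55 ± 0.14. Cat, catalase, was higher in no comparison and lower in 11, with −2.99 ± 0.22 under naproxen.

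Readouts of other receptors differed among these 9 comparisons. Cyp1a1, the AhR target, averaged 4693 CPM under flutamide against 1.71 CPM in vehicle rats and 1.44 against 0.998 CPM under bardoxolone. Cyp2b1, the CAR target, averaged 11700 CPM under ticlopidine against 328 CPM and 54.7 against 75.8 CPM under bardoxolone. Cyp3a23/3a1, the PXR target, was lower under bardoxolone (−0.86) and higher under the 8 others (2.34 to 4.80). Under bardoxolone none of Cyp1a1, Cyp2b1 and Cyp3a23/3a1 was called higher, while each of the 8 others raised at least 1 of the 3. Each receptor was read by 1 gene, and the part of the receptors in the members' changes was not tested. Of the ATF4 readouts, Asns, asparagine synthetase, was higher under bardoxolone (4.43 ± 0.58, adjusted p = 0.00736) and under all the others but almorexant (1.33 to 4.51 where called). Trib3 was higher under carbamazepine, flutamide, ticlopidine, nefazodone, ritonavir and hydroxyzine and stood at 1.80 under bardoxolone, not called. Chac1 and Ddit3 were higher in none of the 9, and Chac1 was lower in 4 and Ddit3 in 2. Slc7a11 is a known ATF4 target too, and the part of ATF4 in its change was not tested.

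Across the 97 comparisons the members followed one another to different degrees. These correlations are descriptions over comparisons that are not independent, since 15 vehicle groups serve more than 1 of them. Gsr followed the median of the other members most closely (Pearson r 0.94), then Htatip2 (0.90) and Txnrd1 (0.88). Hmox1 (0.33), Nfe2l2 (−0.10) and Cbr3 (−0.30) followed it least. The closest pair was Gclc with Gclm (0.95), the 2 subunits of 1 enzyme, and the farthest was Hmox1 with Akr7a2 (−0.42). Among 10875 named genes outside the members with a mean of at least 1 CPM, Pir (0.91), Kxd1 (0.89), Elac2 (0.87), Gstm1 (0.87) and Txnl1 (0.87) were most like the members' median, followed by Tbce, Setd4, Mgst2, Atp6v1g1 and Mdm2 (0.85).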

How the data were processed

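RNA was extracted from liver with MagMAX and sequenced as TruSeq stranded mRNA libraries, per the labels' protocols. The authors deposited 2 tables of expected counts, over Ensembl and over RefSeq genes, without normalisation, and 87.49% of the non-zero Ensembl values are whole. The authors also deposited FPKM, used here only for vehicle levels. The build is Rnor_6.0, per the submitters' processing notes. The aligner and counter are not given in the sources used here.

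Libraries of 1 rat within a group were summed and rounded, so n counts rats. Fits used edgeR 4.0.16 in R 4.3.3 (filterByExpr, TMM, robust dispersions, quasi-likelihood F test, 2-sided, Benjamini-Hochberg over all genes of a comparison, threshold 0.05), with sex as a covariate for bardoxolone and pyrazole. CPM uses TMM-scaled totals of the fit. Fold changes are log2 ± SE. The tests were checked on simulated counts. DESeq2 1.42.0, other scaling, filters, RIN and left-out rats were alternatives.

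Named comparisons are bardoxolone, the 8 with most members higher and the 3 with most lower, with ties ranked by the members' median. The design's contrasts and genes were also named. TCDD, PCN, phenobarbital, troglitazone and telcagepant values, lumiracoxib, nabumetone and fluoxetine counts, males-only fits and fits without libraries alike to the other arm were chosen after seeing the data. The members and lists were chosen with earlier results of these data known.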

Additional observations from a re-analysis of the deposited data

Results flagged for a closer look

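Among 88 groups of at least 4 rats whose member values are printed, 9 held 1 rat apart from the others by Dixon's 95% criterion. Chance alone flags about 1 in 20 such groups. Gpx2 accounts for 5 of the 9. One flutamide rat read 37.3 CPM and one ticlopidine rat 76.2 CPM, and in their vehicle groups, which may be the same rats, 1 animal each read 1.07 and 1.22 CPM. A ritonavir vehicle rat read 1.70 CPM of Gpx2. One flutamide vehicle rat read 0.0593 CPM of Slc7a11, a single read where the others had none. The lowest NB-360 rat read 68.5 CPM of Nfe2l2.

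In the Han Wistar phenobarbital study, the third library labelled vehicle read 3191 CPM of Ephx1, 3.41 CPM of Srxn1 and 12263 CPM of Cyp2b1, each far above the other vehicle rats and among or next to the treated rats.

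Effects of treatments differed by direct test in 3 contrasts: 16 members between bardoxolone and TCDD, 11 between bardoxolone and flutamide, and 19 between clarithromycin and erythromycin. The tests against TCDD and erythromycin include members that pass the filter on low counts only through the other treatment.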

How the results depend on the processing

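The 570 higher calls became 322 with RIN as a covariate and 369 when an absolute log2 fold change of at least 1 was also needed. The 71 lower calls became 113 with DESeq2, 44 with RIN and 38 with the size limit, and the 18 comparisons with at least 1 of every 2 members higher became 10 with RIN and 8 with the size limit. With RIN, members higher went from 22 to 2 for bardoxolone, 26 to 12 for flutamide, 23 to 10 for NB-360, 23 to 0 for hydroxyzine and 22 to 2 for nefazodone, and the size limit left 14 for bardoxolone and 15 for hydroxyzine. The RIN fit has 1 degree of freedom less, and the cause was not tested further. Of the 50 member values followed in the 12 comparisons, 3 changed sign: Gpx2 under flutamide to −0.11 and Nqo1 under bardoxolone to −1.46, both with RIN, and Hmox1 under bardoxolone to −0.0017 without treated rat 1 (−0.0017 to 0.31 over all left-out rats). In 764 checks of these values, each with 1 setting or 1 left-out rat, 32 others lost a call and 7 gained one. For Han Wistar phenobarbital, 0 members became 15 without the vehicle library alike to a treated one.

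Leaving out each rat in turn gave 20 to 22 members higher for bardoxolone, 24 to 27 for flutamide, 24 to 27 for ticlopidine, 23 to 25 for carbamazepine, 23 to 25 for ritonavir, 21 to 23 for NB-360, 19 to 23 for almorexant, 16 to 22 for hydroxyzine and 19 to 23 for nefazodone. Members lower ranged from 11 to 13 for naproxen, 8 to 10 for sudoxicam and 6 to 12 for diclofenac. The contrasts ranged from 15 to 17 against TCDD, 8 to 11 against flutamide, 16 to 20 for the macrolides, and 0 to 0 for the MK-3207 doses and for felbamate against carisoprodol. Almorexant without libraries of RIN under 7 could not be fitted. No paired analysis was possible because the replicate numbers were given in accession order and only name the animals. Depth limits Slc7a11, Gpx2 and the PCN study.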
